A study of Mus musculus with 12 samples.

Results

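The genes of antigen presentation by MHC class II were followed in bone marrow-derived macrophages (BMDMs). By edgeR's test none of the 7 passed the study's criteria for a change with LPS or genotype. Of all genes tested, 0% to 21.7% passed by edgeR, depending on the comparison, so 0 of 7 does not by itself set these genes apart. By DESeq2's test, whose share of all genes is not given here, 1 of them, H2-Ab1, passed in 1 comparison. The members were Ciita, Cd74, H2-Aa, H2-Ab1, H2-Eb1, H2-DMa and H2-DMb1, chosen by name and found 7 of 7 among the 43134 genes of the count table. Libraries of the same group lay far from each other for most of these genes, and H2-Ab1 departed from its partner chain H2-Aa. The BMDMs were of C57BL/6 background and carried floxed tlr4 alleles (tlr4f/f), either without Cre or with Cre expressed from the lysM (Lyz2) locus, which deletes floxed tlr4 in myeloid cells (tlr4f/f-lysM-cre). Bone marrow cells of all groups were grown in 50 ng/mL of M-CSF over 7 days, and were then left unstimulated or given 1 µg/mL of lipopolysaccharide (LPS), the ligand of TLR4, for 6 h. RNA was sequenced in 3 libraries for each of 4 groups, 12 in all. The libraries held between 33581450 and 56451843 counts over all genes, with a median of 45347363. The age of the mice is not given in the labels, nor whether the libraries of a group came from separate mice or cultures, so p-values measure the spread between these libraries only.

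MHC class II molecules present peptides of ingested proteins to CD4+ T cells. An α and a β chain assemble in the endoplasmic reticulum with the invariant chain Cd74, which blocks the groove and guides the complex to endosomes, where the H2-DM heterodimer exchanges the remaining Cd74 fragment for peptide. Transcription of all these genes depends on the co-activator Ciita, which binds no DNA itself but joins a complex of RFX, NF-Y and CREB proteins on the X and Y boxes of their promoters. In macrophages Ciita is best known for its induction by interferon gamma.

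Groups are named by the headings of the table, and the headings of 2 groups may be exchanged. Tlr4 was at 76.7 to 150 CPM (read counts relative to library size, scaled by edgeR's TMM method) in the 6 libraries headed unstimulated and at 24.5 to 31.2 CPM in the 6 headed LPS, whichever genotype they were headed. Lyz2, which carries the Cre allele, was at 5906 to 22971 CPM in all libraries headed unstimulated and at 10.4 to 75.8 CPM in all headed LPS. Il1b, a gene induced by LPS, was at 1606 to 8159 CPM in the 6 libraries with tlr4f/f-lysM-cre in the heading and at most 6.92 CPM in the other 6. As headed, Tlr4 and Lyz2 thus followed LPS and Il1b followed the genotype. If the headings tlr4f/f with LPS and tlr4f/f-lysM-cre without it had changed places, Tlr4 and Lyz2 would follow the genotype and Il1b would follow LPS. The floxed part of Tlr4 was not counted apart from the rest of its transcript. Each comparison is therefore read in both ways: as headed, and with these 2 headings exchanged. With the exchange, the difference between the 2 groups headed unstimulated becomes the effect of LPS in tlr4f/f, and that between the 2 groups headed LPS becomes the effect of LPS in tlr4f/f-lysM-cre. Likewise the differences read as LPS in tlr4f/f and LPS in tlr4f/f-lysM-cre become those between genotypes without and with LPS. The values stay the same and only their names change. For brevity the 4 headings are shortened to f/f for tlr4f/f, to cre for tlr4f/f-lysM-cre, and to f/f + LPS and cre + LPS where LPS was given, and these names stand for the headings only.

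Ciita, the co-activator, lies on chromosome 16 of mm10 from 10480059 to 10528418 on the plus strand. It was at 0.222, 1.03 and 17.4 CPM in the libraries headed f/f and at 0.799, 2.85 and 0.304 CPM in those headed cre. With LPS in the heading it was at 4.24, 5.76 and 2.01 CPM for tlr4f/f and at 2.34, 1.84 and 2.72 CPM for tlr4f/f-lysM-cre. The lowest and highest of the 12 libraries thus belonged to the same group, in which Ciita was counted 13 and 942 times. All 4 groups overlapped. The span of Dexi, a gene on the opposite strand, overlaps that of Ciita with introns included, and overlap of exons was not checked. Reads from any shared exon cannot be told apart, since no strand setting is given in the sources used here.

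H2-Aa encodes the α chain of H2-A, the class II molecule of C57BL/6 mice. It lies on chromosome 17 from 34282744 to 34287823 on the minus strand. It was at 7.97, 30.4 and 71.8 CPM in the libraries headed f/f, at 11.7, 39.7 and 33.9 CPM in those headed cre, at 32.9, 26.0 and 11.2 CPM in those headed f/f + LPS and at 39.3, 32.6 and 16.9 CPM in those headed cre + LPS. The groups overlapped, and libraries of a single group lay further apart than the group means.

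H2-Ab1 encodes the β chain that pairs with H2-Aa and lies on chromosome 17 from 34257689 to 34269419 on the plus strand. It was at 14.7, 56.5 and 67.1 CPM in the libraries headed f/f and at 84.4, 95.3 and 80.0 CPM in those headed cre. In the groups headed LPS it was at 29.3, 27.7 and 11.4 CPM for tlr4f/f and at 75.8, 76.5 and 48.2 CPM for tlr4f/f-lysM-cre. Unlike the α chain, H2-Ab1 was higher in every library headed cre than in any other library. The 3 libraries headed cre + LPS lay between these and the 3 headed f/f + LPS without overlap, while those headed f/f overlapped both groups headed LPS. A lack of overlap was common. It held for 67.3% of genes between the groups headed LPS, 54.2% between those headed unstimulated and 48.4% between cre + LPS and cre.

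H2-Eb1, the β chain of H2-E, lies on chromosome 17 from 34305867 to 34316674 on the plus strand. H2-E is not displayed in C57BL/6 mice, because the gene of its α chain is defective in this strain. H2-Eb1 was at 5.90, 16.7 and 31.8 CPM in the libraries headed f/f and at 13.9, 22.1 and 14.9 CPM in those headed cre. With LPS in the heading it was at 13.6, 11.1 and 6.91 CPM for tlr4f/f and at 23.7, 17.8 and 14.5 CPM for tlr4f/f-lysM-cre. The libraries headed f/f + LPS lay below both groups headed tlr4f/f-lysM-cre without overlap and inside the range of the group headed f/f. Between the groups headed LPS, 67.3% of all genes tested did not overlap, and for f/f + LPS against cre no such share was counted. The span of an annotated antisense gene, Gm20513, overlaps that of H2-Eb1. Overlap of exons was not checked, and reads from any shared exon cannot be told apart.

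In general the Ciita complex forms at sites in class II promoters, and the windows of 2 members, H2-Aa and H2-Eb1, are shown. These 2 genes followed each other over the libraries (Pearson's r of log2 CPM 0.880 over 12 libraries, which share library and scaling). The part of the sites in this was not tested. The sequences are the 150 bases before the RefSeq start site in GRCm38.p6, at chr17:34287824-34287973 on the minus strand for H2-Aa and at chr17:34305717-34305866 on the plus strand for H2-Eb1. They are written 5′ to 3′, with the matched letters in capitals.
H2-Aa: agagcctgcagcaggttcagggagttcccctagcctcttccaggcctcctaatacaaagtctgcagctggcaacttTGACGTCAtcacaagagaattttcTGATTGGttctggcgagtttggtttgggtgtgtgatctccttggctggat
H2-Eb1: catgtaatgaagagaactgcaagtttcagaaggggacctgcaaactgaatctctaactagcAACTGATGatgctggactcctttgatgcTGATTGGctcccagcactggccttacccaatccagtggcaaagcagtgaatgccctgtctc
Both strands were searched for TGATTGG, the core of the Y box, for AACNGATG, a core of the X box, and for TGACGTCA, the CREB site. The letters were chosen after these windows were seen. H2-Aa held the CREB site 74 bases and the Y box 50 bases before its start, and H2-Eb1 the X box at 89 and the Y box at 61 bases. H2-DMb1 held the X box at 92 and the Y box at 63 bases before its RefSeq start, which lies inside the first exon of the GENCODE annotation, so its bases are not printed. H2-DMa held none of the 3 in the windows of its 2 start sites. Of 32851 RefSeq windows, which run from 250 bases before to 50 bases after a start, 7.82% held TGATTGG, 2.32% AACNGATG, 1.79% TGACGTCA, and 0.186% both X and Y. A match is a description of letters only. No window was found for Ciita and H2-Ab1, and Cd74 is not shown.

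Cd74, the invariant chain, was the most abundant member. It was at 52.9, 314 and 869 CPM in the libraries headed f/f and at 85.6, 425 and 409 CPM in those headed cre. In the groups headed LPS it was at 378, 329 and 122 CPM for tlr4f/f and at 486, 417 and 200 CPM for tlr4f/f-lysM-cre. Again the groups overlapped, and replicate 1 of each unstimulated group and replicate 3 of each LPS group were the lowest. The same libraries were the lowest of their groups for H2-Aa.

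The peptide exchange factor H2-DM is made of H2-DMa (chromosome 17, 34119541 to 34139101, plus strand) and H2-DMb1 (chromosome 17, 34153072 to 34160230, plus strand). H2-DMa was at 6.31, 16.6 and 13.97 CPM in the libraries headed f/f, at 6.82, 17.4 and 11.7 CPM in those headed cre, at 14.4, 17.5 and 10.4 CPM in those headed f/f + LPS and at 13.0, 16.6 and 12.3 CPM in those headed cre + LPS. H2-DMb1, in the same order, was at 11.5, 25.8 and 28.6 CPM, at 9.61, 26.1 and 17.0 CPM, at 22.2, 24.4 and 16.1 CPM, and at 23.7, 29.0 and 19.9 CPM. The group means of both chains lay the closest together among the 7 members, between 11.97 and 14.1 CPM for H2-DMa and between 17.6 and 24.2 CPM for H2-DMb1. The row used for H2-DMa is a predicted transcript of 6390 bases, and the curated transcript held 82.9% of its counts. The span of the gene overlaps that of Brd2 on the opposite strand, and overlap with this transcript was not checked. H2-DMb1 has a near copy next to it, H2-DMb2, between which reads may be split.

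**Figure D1:**
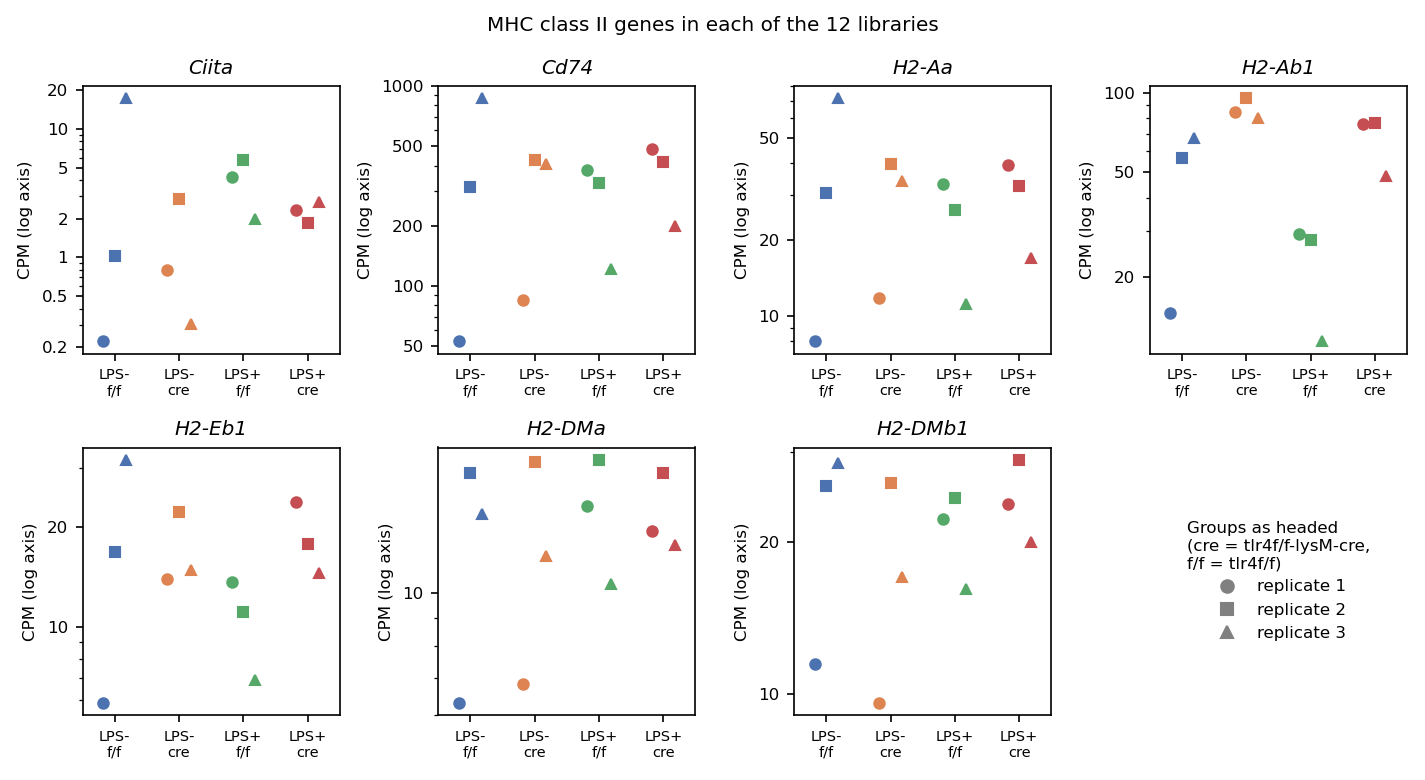
Levels of the 7 class II genes in CPM (log axis, 1 panel a gene) in each of the 12 libraries, by group as headed (f/f is tlr4f/f and cre is tlr4f/f-lysM-cre, with LPS- for unstimulated and LPS+ for LPS); circles, squares and triangles are replicates 1, 2 and 3. Cd74 and H2-Aa show the same pattern of libraries, and H2-Ab1 separates the groups headed cre from the group headed LPS+ f/f, with 48.2 to 95.3 CPM against 11.4 to 29.3 CPM, as H2-Eb1 does more narrowly. Between the 2 groups headed LPS+, 67.3% of all genes tested did not overlap.

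Per kilobase of the curated transcript, the order of the median levels over the 12 libraries was Cd74 (253 CPM per kb), H2-Ab1 (52.5), H2-Aa (29.8), H2-DMb1 (18.1), H2-Eb1 (8.91), H2-DMa (6.99) and Ciita (0.349). H2-DMb2, the other DM β chain, was at 0.399 CPM per kb, and H2-Oa and H2-Ob, whose product restrains H2-DM in B cells, were at 0.137 and 0.148 CPM per kb. The order of the groups differed from gene to gene. By mean CPM, the group headed f/f was the highest for Ciita (6.21 ± 9.68, SD, n = 3), Cd74 (412 ± 417) and H2-Aa (36.7 ± 32.4), the group headed cre for H2-Ab1 (86.6 ± 7.86), and a group headed LPS for H2-Eb1 (18.7 ± 4.65), H2-DMa (14.1 ± 3.58) and H2-DMb1 (24.2 ± 4.57). The first place of f/f rested on its replicate 3. Without it the f/f means were 0.628 CPM for Ciita, 184 CPM for Cd74 and 19.2 CPM for H2-Aa, the lowest of the 4 groups for all 3 genes. Next to each other in the order of all libraries, groups overlapped for Ciita, Cd74, H2-Aa, H2-DMa and H2-DMb1.

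The spread within groups exceeded that of most genes for every member, except H2-Ab1 in the group headed cre. Without LPS in the heading, Ciita had a coefficient of variation (CV) over 3 libraries of 156% in tlr4f/f, with the highest library 78.2 times the lowest, while the median CV of 12065 genes with a mean of at least 1 CPM was 17.6%. Only 0.423% of these genes had a CV as high. Cd74 had a CV of 101% there (2.84% of genes as high) and H2-Aa one of 88.2% (3.86%). In the group headed cre, the CV of Ciita was 102% and that of Cd74 62.5%, but H2-Ab1 had a CV of 9.08%, below the median of 20.9%.

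In the groups headed LPS, other genes were tight and class II genes were not. The median CV was 6.19% in the libraries headed f/f + LPS, over 11844 genes, whereas it was 49.2% for Cd74 (0.447% of genes as high), 47.4% for H2-Aa (0.532%), 47.2% for Ciita (0.540%) and 43.3% for H2-Ab1 (0.726%). H2-Eb1 (32.2%), H2-DMa (25.3%) and H2-DMb1 (20.5%) were also above most genes, with 2.16%, 4.47% and 7.43% of genes as high. In those headed cre + LPS the median CV was 6.32%, and Cd74 (40.6%, 0.901% of genes as high) and H2-Aa (39.0%, 1.12%) spread the most. The 7 MHC class I genes had CVs between 4.22% and 15.1% in the libraries headed f/f + LPS and between 0.783% and 8.09% in those headed cre + LPS. Nlrc5, the co-activator of class I genes and a relative of Ciita, had a CV of 9.82% in the libraries headed f/f + LPS and 0.783% in those headed cre + LPS. These shares are descriptions, since the genes of a library are not independent of each other.

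**Figure D2:**
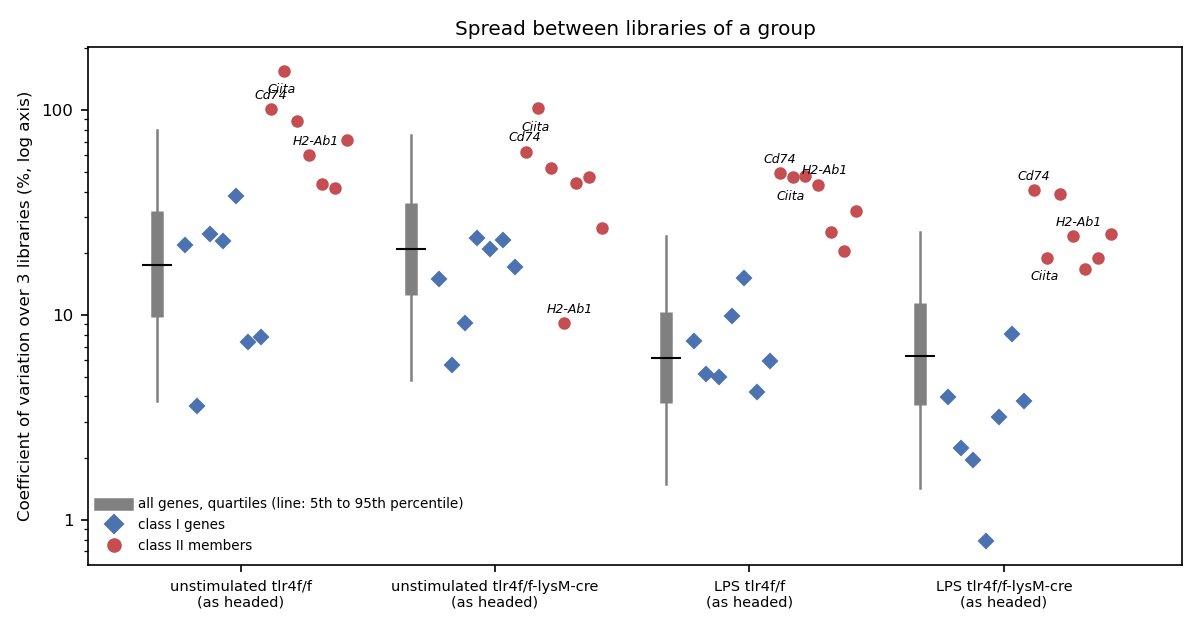
Coefficient of variation over the 3 libraries of each group as headed (percent, log axis) for the 7 class II genes (red circles), the 7 class I genes (blue diamonds) and all genes with a mean of at least 1 CPM (grey: quartiles, line from the 5th to the 95th percentile, black bar at the median). In the groups headed LPS all class II genes lie above the median of 6.19% or 6.32%, up to 49.2% for Cd74.

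The low libraries were shared by the class II genes. Replicate 3 was the lowest of both groups headed LPS for 6 of 7 members, all but Ciita, against 15.5% of 11310 genes. The order of the 3 libraries was the same in these groups for 5 of 7 members and for 23.5% of genes. Between the groups headed unstimulated, the same replicate number was the lowest for 5 of 7 members and for 46.4% of 11233 genes. Cd74 was among 13 genes that were more than 2-fold below the other libraries in replicate 3 of both groups headed LPS, and the others included the complement genes C1qa, C1qb and C1qc, and Erdr1. Erdr1 had 480, 328 and 1 counts in the libraries headed f/f + LPS and 419, 296 and 1 in those headed cre + LPS. It was counted between 585 and 2748 times in the 6 libraries headed unstimulated. These genes were looked at after the levels of the members were seen, and their part in the spread was not tested.

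The comparisons asked whether LPS or the loss of myeloid TLR4 moved the class II genes. A gene was called differentially expressed (a DEG) where it differed more than 2-fold with an adjusted p under 0.01 by edgeR's quasi-likelihood test. These limits are those that the study set, where they were applied to results of DESeq. Between the libraries headed f/f + LPS and f/f, 0 of 7 members were DEGs and 0 had an unadjusted p below 0.05, where 0% of 14704 genes were DEGs and 24.6% had such a p. Between those headed cre + LPS and cre, 0 of 7 were DEGs and 0 had an unadjusted p below 0.05, against 6.08% of genes called and 40.3% with such a p. Between the genotypes headed unstimulated, 0 of 7 were DEGs and 0 had an unadjusted p below 0.05, against 17.1% of genes called and 47.8% with such a p. DESeq2's test called 0 members in these 3 comparisons. Here and below, the shares of all genes called are those of edgeR. The share that DESeq2 called is not given here, so its calls have none to be set against. Between the genotypes headed LPS, 0 of 7 members were DEGs against 21.7% of genes, while 2 (H2-Ab1 and H2-Eb1) had an unadjusted p below 0.05, against 64.9% of genes, and DESeq2 called 1 (H2-Ab1). In bulk RNA, fewer cells that express a gene and less RNA per cell cannot be told apart.

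The genotypes headed LPS were compared with the least noise, with a biological coefficient of variation in edgeR of 8.88%, against 28.7% to 43.1% in the other comparisons. H2-Ab1 was 2.96-fold higher in the libraries headed cre + LPS than in those headed f/f + LPS, or 1.57 on the log2 scale with a standard error of 0.451 (adjusted p = 0.0383 by edgeR). It thus missed the threshold of 0.01 but not one of 0.05, at which 23.9% of all genes tested were called with a change of more than 2-fold. By DESeq2 its adjusted p was 0.00132, and with the sum over transcript rows, 0.00637 in edgeR, while without either replicate 1 or 2 of the group headed cre + LPS it was 0.110 or 0.111. For H2-Eb1 the log2 difference was 0.84 with a standard error of 0.312 (adjusted p = 0.0663 by edgeR). Neither H2-Ab1 nor H2-Eb1 overlapped between these groups, as was the case for 67.3% of genes.

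The other members differed by less than the spread between libraries. Ciita had a log2 fold change of -0.77 between the genotypes headed LPS (adjusted p = 0.105 in edgeR), opposite in sign to H2-Ab1. Without replicate 3 of the group headed f/f + LPS it was -1.11 with an adjusted p of 0.000645 in edgeR, so that single library decided the call. The log2 fold changes of Cd74 and H2-Aa were 0.42 and 0.35, with 95% intervals from -1.203 to 2.04 and from -1.15 to 1.85, which leave room for a change of more than 2-fold in either direction. H2-DMa (-0.01, interval -0.49 to 0.48) and H2-DMb1 (0.22, interval -0.26 to 0.70) were held more narrowly, to less than 2-fold.

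Read with the headings exchanged, the same values are the effect of LPS in tlr4f/f-lysM-cre BMDMs. H2-Ab1 is then higher with LPS by 1.57 on the log2 scale, and Ciita lower by 0.77. The difference between the genotypes under LPS is then that of the libraries headed cre + LPS from those headed cre. For H2-Ab1 this was -0.39 (standard error 0.190, adjusted p = 0.173 in edgeR), the 1 member of 7 that did not overlap, against 48.4% of genes. For Ciita it was 0.81 (interval -0.90 to 2.52), for Cd74 0.24 (-1.199 to 1.68) and for H2-Aa 0.04 (-1.12 to 1.197).

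Without LPS in the heading, H2-Ab1 was again higher in the group headed tlr4f/f-lysM-cre, by 0.93 on the log2 scale (interval -0.29 to 2.16, adjusted p = 0.195 in edgeR). It was the 1 member whose libraries did not overlap, against 54.2% of genes. Ciita had the largest difference of the members in size, and the widest interval, -2.24 with an interval from -6.06 to 1.57, and without replicate 3 of the group headed f/f it was 1.08, with the sign turned. The signs of Cd74, H2-Aa and H2-Eb1 turned too without that library, from -0.41 to 0.78, from -0.35 to 0.60 and from -0.08 to 0.61, as did that of H2-DMa, from -0.02 to 0.09. With the headings exchanged, these differences are the effect of LPS in tlr4f/f BMDMs.

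Between the libraries headed f/f + LPS and f/f, 6 of 7 members were lower with log2 fold changes down to -0.996 for H2-Ab1 (interval -2.47 to 0.48), and all 7 overlapped, against 34.8% of genes that did not. With the exchange this is the difference between unstimulated genotypes. The interaction term is the same value in both readings, and 0 of 7 members were DEGs by it (0 with an unadjusted p below 0.05 in edgeR, 0 by DESeq2), against 0.995% of genes called and 23.4% with such a p. Its log2 values ran from -0.01 for H2-DMa to 1.44 for Ciita, with adjusted p of at least 0.487 in edgeR. The libraries headed cre + LPS and f/f, the 2 groups named alike in both readings, differed in both genotype and LPS. Between them 0 of 7 members were DEGs (0 with an unadjusted p below 0.05 in edgeR, 0 by DESeq2), against 13.4% of genes called and 50.1% with such a p, and 0 of 7 were without overlap, against 57.6%.

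**Figure D3:**
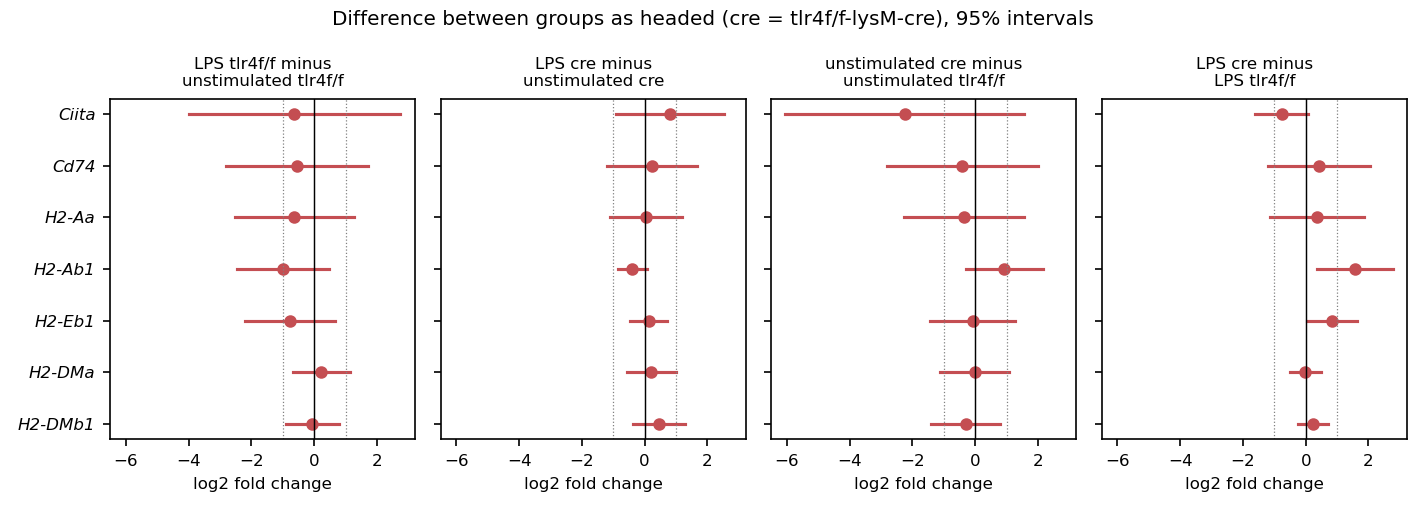
Log2 fold change of each class II gene (points) with its 95% interval (lines) from edgeR in 4 comparisons of groups as headed; dotted lines mark a 2-fold change. With 2 headings exchanged, the panels from left to right are genotype without LPS, genotype with LPS, LPS in tlr4f/f and LPS in tlr4f/f-lysM-cre. H2-Ab1 and H2-Eb1 in the right panel, at 1.57 and 0.84, are the members whose interval stays clear of 0.

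H2-Ab1 also parted from H2-Aa inside single libraries, where no scaling between libraries enters. The ratio of H2-Ab1 to H2-Aa in counts per kilobase was 1.65, 1.67 and 0.837 in the libraries headed f/f and 0.797, 0.952 and 0.914 in those headed f/f + LPS. It was 6.44, 2.15 and 2.12 in the libraries headed cre and 1.73, 2.10 and 2.56 in those headed cre + LPS. All 6 libraries headed cre or cre + LPS were therefore above the other 6. With the headings exchanged, the 6 high libraries are all those given LPS and the 6 low ones all those left unstimulated. The ratio was chosen after its values were seen and carries no test.

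Neither the ratio of Cd74 to H2-Aa nor that within H2-DM divided the libraries in this way. Cd74 to H2-Aa was between 8.23 and 9.67 in the 6 libraries headed LPS and between 5.01 and 9.15 in those headed unstimulated. H2-DMb1 to H2-DMa was between 2.05 and 3.53 over all 12. On the scale of log2 CPM over 12 libraries, Pearson's r was 0.983 between Cd74 and H2-Aa and 0.942 between H2-DMa and H2-DMb1. Ciita was less like the genes it serves, with r of 0.637 with Cd74, 0.602 with H2-Aa and 0.103 with H2-Ab1. These correlations share libraries and groups and are descriptions.

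**Figure D4:**
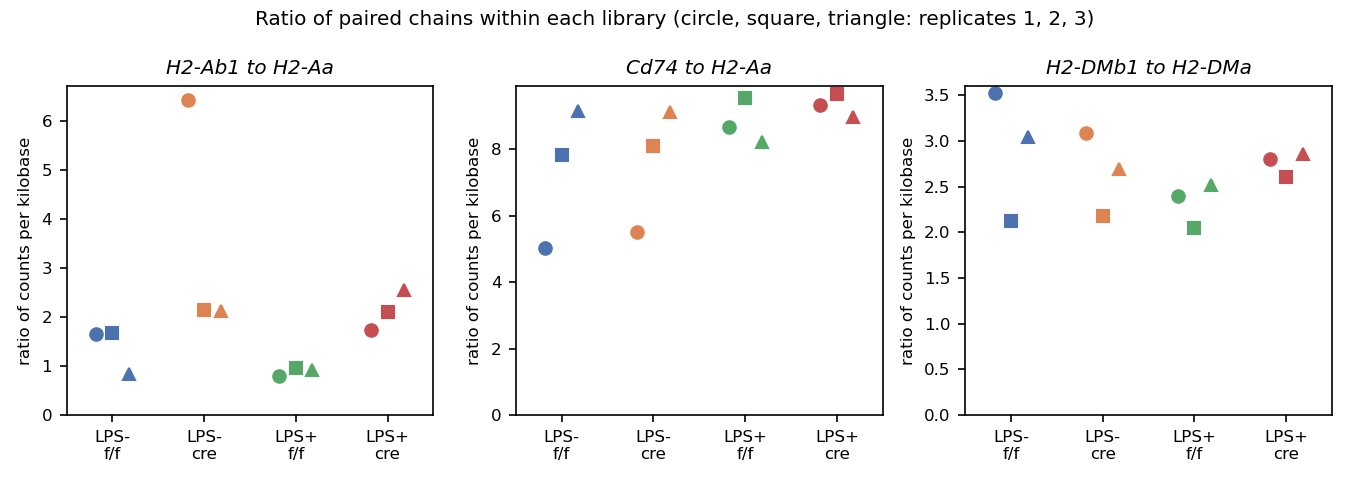
Ratio of counts per kilobase of 2 class II genes inside each library (linear axis from 0), by group as headed; circles, squares and triangles are replicates 1, 2 and 3. H2-Ab1 to H2-Aa lies between 1.73 and 6.44 in the libraries headed cre and between 0.797 and 1.67 in those headed f/f, while the other ratios shown have no such division.

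Genes that act on Ciita passed the test where Ciita did not. The 12 inputs to Ciita were receptors, kinases, factors and an inhibitor of the interferon gamma pathway, with other transcription factors such as Spi1, Irf4, Usf1 and Prdm1. Of these, 6 were DEGs higher and 1 lower in the libraries headed cre + LPS than in those headed f/f + LPS, where 21.7% of all genes were DEGs. Irf1, a factor that acts at the Ciita promoter, was higher by 2.33 on the log2 scale. Socs1, a feedback inhibitor of the pathway, was higher by 5.54, Jak2, a kinase of the receptor, by 3.16, and Prdm1, a repressor of Ciita in plasma cells, by 3.04. Irf4 was lower, at -1.38. Irf8, a factor of myeloid cells, was not called, with a log2 fold change of 0.16 (adjusted p = 0.684 in edgeR). Between the groups headed unstimulated, 8 of the 12 were DEGs, all higher in the group headed tlr4f/f-lysM-cre, against 17.1% of all genes. Ifngr1, a chain of the interferon gamma receptor, went the other way and was not called in either comparison. It was at -1.04 between the groups headed unstimulated (adjusted p = 0.0219 in edgeR) and at -0.77 between those headed LPS (adjusted p = 6.28e-08 in edgeR). Read in the exchanged way, both comparisons are effects of LPS, and the genotypes under LPS are compared by cre + LPS against cre. There 9 of the 12 inputs were lower with a median of -0.53. By edgeR 1 was a DEG (Jak2, lower), against 6.08% of all genes by the same test. DESeq2 called Jak2, Irf8 and Socs1 lower, and its own share of all genes is not given here.

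Class I genes were higher as well. Of the 7 class I genes, 7 were higher and 4 were DEGs between the genotypes headed LPS, against 21.7% of all genes, with a median log2 fold change of 1.36 beside 0.35 for the class II members and -0.02 for all genes tested. Nlrc5 was at 251 ± 1.97 CPM in the libraries headed cre + LPS and 38.8 ± 3.81 CPM in those headed f/f + LPS, a log2 fold change of 2.70. Tap1 and Tap2, which carry peptides into the endoplasmic reticulum, had values of 2.39 and 2.09. Between the groups headed unstimulated, 5 class I genes were DEGs, all higher, against 17.1% of all genes, with a median of 1.92 beside -0.30 for the class II members and -0.08 for all genes. Read with the headings exchanged, these values are the effect of LPS in each genotype. The difference between the genotypes under LPS is then the one between the groups headed tlr4f/f-lysM-cre, in which 7 of 7 class I genes were lower in the libraries headed cre + LPS and 5 were DEGs, against 6.08% of all genes, with a median of -1.19 beside 0.21 for the class II members and 0.03 for all genes.

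Most co-stimulators, which act beside class II on the cell surface, were also higher. Of 4 co-stimulators, Cd40, Cd86 and the adhesion molecule Icam1 were DEGs between the genotypes headed LPS, with log2 fold changes of 6.84, 3.15 and 3.21, against 21.7% of all genes, while Cd80 was at -0.11 (adjusted p = 0.638 in edgeR). All 4 were DEGs, higher in cre, between the groups headed unstimulated, against 17.1% of all genes. In cre + LPS against cre, the genotype comparison under LPS if the headings are exchanged, all 4 were lower with a median of -1.73. There edgeR called Cd80 (-1.90), against 6.08% of all genes by the same test. DESeq2 called Cd40, Cd80 and Cd86, and its own share of all genes is not given here. Marchf1, a ubiquitin ligase that removes class II and Cd86 from the surface, was at 103 ± 17.2 CPM in the libraries headed cre + LPS and 44.8 ± 10.1 CPM in those headed f/f + LPS, a log2 fold change of 1.21 (adjusted p = 0.00706 in edgeR), and its relative Marchf8 was at -0.18. Between the groups headed unstimulated Marchf1 was at 3.54 (adjusted p = 0.0505 in edgeR), where DESeq2 called it. In cre + LPS against cre it was at -1.08 (adjusted p = 0.380 in edgeR). Of the other class II chains, 2 could be tested between the genotypes headed LPS, and H2-Ob was a DEG with 14 to 39 against 3 to 7 counts. H2-DMb2 had a log2 fold change of -0.93 (adjusted p = 0.114 in edgeR), and H2-Oa was too low to be tested there. In cre + LPS against cre, H2-Ob was at 0.23, H2-DMb2 at -0.30 and H2-Oa at -1.91, none a DEG.

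The promoter complex and the proteases of the pathway held no DEG by edgeR. Of the 7 genes of the RFX, NF-Y and CREB complex, 0 were DEGs in each of the 6 comparisons, by edgeR or DESeq2, with 1 to 4 at an unadjusted p below 0.05 in edgeR, and their median log2 fold changes were between -0.21 and 0.11. Of the 8 genes of endosomal proteases and a reductase, which cut antigen and Cd74, 0 were DEGs by edgeR in each of the 6 comparisons, with 0 to 5 at an unadjusted p below 0.05. Of all genes, 0% to 21.7% were DEGs in these comparisons by edgeR, and 23.4% to 64.9% had such a p. Between the genotypes headed LPS, some of both lists passed an adjusted p of 0.01 in edgeR with less than a 2-fold change, such as Rfxank (-0.35) and Ctsz (0.55). DESeq2 called 2 of the 8, Ctsl and Ctsh, both lower in the libraries headed cre + LPS than in those headed cre, and 0 elsewhere. Ctss, the protease of the last step of Cd74 removal, was at 2915 ± 190 CPM in the libraries headed cre + LPS and 2887 ± 297 CPM in those headed f/f + LPS, and Ifi30, the reductase, at 121 ± 12.1 against 171 ± 26.4 CPM, a log2 fold change of -0.49. In cre + LPS against cre, Ctss was at -0.38 and Ifi30 at 0.39 on the log2 scale. These lists were chosen with earlier results of the data known.

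**Figure D5:**
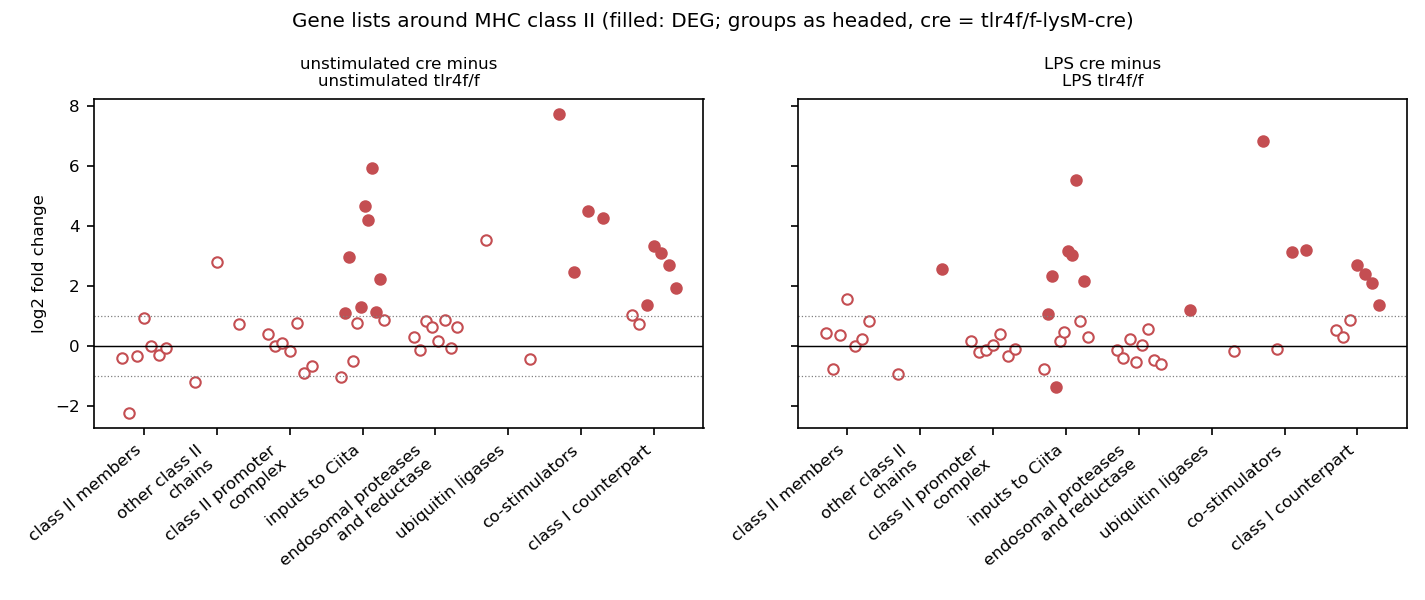
Log2 fold change from edgeR of each gene tested in 8 lists (1 point a gene, filled where it was a DEG), between the groups headed unstimulated (left) and headed LPS (right); dotted lines mark a 2-fold change. With 2 headings exchanged, the left panel is LPS in tlr4f/f and the right panel LPS in tlr4f/f-lysM-cre. No class II member is filled, whereas 6 to 8 of the inputs to Ciita, 3 or 4 co-stimulators and 4 or 5 class I genes are filled with higher values. Of all genes tested, 17.1% (left) and 21.7% (right) were DEGs, and the lists were chosen with earlier results of the data known.

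The cells had the markers of macrophages, and few of those of other cells that make class II. All 8 macrophage markers were at 1 CPM or more in every library, with a sum between 4481 and 29127 CPM. The 9 dendritic cell markers summed to between 1.27 and 14.2 CPM, of which at least 6 were below 1 CPM in every library, with at most 2 counts of Flt3. Some of these markers moved with the headings as H2-Ab1 did. Xcr1, a chemokine receptor of cross-presenting dendritic cells, had 84 to 176 counts in the libraries headed cre. It had 75 to 122 counts in those headed cre + LPS, against 1 to 15 in the other 6. Xcr1 was a DEG between the groups headed unstimulated and between those headed LPS (log2 fold changes of 4.75 and 3.62), against 17.1% and 21.7% of all genes. Between the genotypes headed LPS, Ccr7, a receptor of migrating dendritic cells, was a DEG at 1.74 with 12 to 31 against 4 to 11 counts, and Batf3, a factor of cross-presenting dendritic cells, was a DEG at -1.85. With the headings exchanged, these differences are effects of LPS. The genotypes under LPS are then compared by cre + LPS against cre, where Xcr1 was at -0.70, Ccr7 at -2.80 and Batf3 at 0.41, none a DEG. Their part in the values of H2-Ab1 was not tested. The 7 B lymphocyte markers summed to between 2.50 and 19.8 CPM, with 7 to 827 counts of Cd22. The 5 T lymphocyte markers summed to between 0.239 and 6.49 CPM. The libraries with the lowest and the highest Cd74, replicates 1 and 3 of the group headed f/f, had 1.68 and 1.27 CPM of dendritic cell markers and 3.47 and 8.05 CPM of B lymphocyte markers. Their macrophage markers summed to 13757 and 29127 CPM, a gap carried by Lyz2 at 6564 and 22971 CPM, and the other 7 markers summed to 7193 and 6156 CPM. Without Lyz2, left out after the data were seen, the sum was between 4471 and 4732 CPM in the libraries headed f/f + LPS and between 7770 and 7971 CPM in those headed cre + LPS. The part of these markers in the values of the members was not tested.

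Outside the list, the genes most like the mean of the 7 members over the 12 libraries, out of 15778, were Hps3 (r = 0.907), the phagocytic receptor Axl (0.907), Plxdc2 (0.902), Olfr110 (0.885) and Plekhb2 (0.881). Axl was counted between 962 and 21423 times. The gene most like Ciita was Lsp1, with r = 0.957 and between 254 and 16622 counts, followed by Olfm1 (0.900) and Hipk2 (0.899). These are descriptions over libraries of 4 groups, and no shared function is drawn from them.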

How the data were processed

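RNA of 12 BMDM libraries was depleted of ribosomal RNA according to the sample protocols (the title speaks of polyA), prepared with an NEBNext Ultra kit and sequenced as paired reads. The authors trimmed reads with Trimmomatic 0.36, checked them with FastQC, used HISAT2 to align them to mm10 and took counts from HTSeq, whose strand setting is not given in the sources used here. The deposited values were raw counts for 115140 transcripts, not normalized. From these, each of 43134 genes was given the transcript with the highest total count. Counts were scaled by TMM, filtered with filterByExpr and compared by edgeR 4.0.16 (R 4.3.3) with the quasi-likelihood test and Benjamini-Hochberg adjustment over all genes tested, using only the 6 libraries compared, or all 12 for the interaction. The limits for a DEG were those of the study, a change of more than 2-fold and an adjusted p under 0.01. DESeq2 1.42.0 and the other alternatives are given in the closing section. The scripts were tested on simulated data.

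Groups follow the table's headings, and every comparison was also made with 2 headings exchanged. The members, the gene lists and the rules were chosen with earlier results of these data known. By rule, all 7 members were named, with other genes of the fixed lists and those most like the members by Pearson's r. Replicate numbers were not treated as pairs, since same-numbered libraries deviated together with r between -0.0381 and 0.472. Of the 84 genes in the lists, 81 were in the table. Depth was between 33581450 and 56451843 counts per library, and with 3 libraries a group the precision is set by the spread between them. Some results of the lists are not reported here.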

Additional observations from a re-analysis of the deposited data

How the results depend on the processing

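The count of DEGs among the 7 members was 0 in all 6 comparisons and stayed at 0 under every alternative with the headings as deposited, except between the genotypes headed LPS. There it was 1 (H2-Ab1) with DESeq2, with the sum over transcript rows, with the replicate block (adjusted p = 0.00116 in edgeR) and at an adjusted p below 0.05, and between 0 and 1 when a library was left out, the 1 being Ciita without replicate 3 of the group headed f/f + LPS. With the headings exchanged and DESeq2, the count of 1 moved to the comparison of LPS in tlr4f/f-lysM-cre. By edgeR, the adjusted p of H2-Ab1 between the genotypes headed LPS was between 0.00116 and 0.111 over these alternatives and left-out libraries. Of all genes, 3163 were DEGs between the genotypes headed LPS, and 2052 when all 12 libraries shared one fit. With the sum over transcript rows, the median over the members of the group mean went from 17.6 to 8.34 CPM in the libraries headed cre, from 20.9 to 6.86 in those headed f/f + LPS and from 24.2 to 8.69 in those headed cre + LPS. H2-Aa, H2-Ab1, H2-Eb1 and H2-DMb1 had 1 transcript row each, so the sum left their counts as they were. The library totals took in every row of the other genes. The part of this in the lower medians was not tested.

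With the headings exchanged, each comparison takes the libraries of another by construction, so by edgeR a turned sign is a change of name and not of value. From here to the end of the next sentence, the short names stand for the exchanged headings. Signs of log2 fold changes turned for f/f + LPS against f/f (H2-Ab1 0.93 and H2-DMa -0.017), cre + LPS against cre (Ciita -0.77, H2-Ab1 1.57 and H2-DMa -0.0068), cre against f/f (H2-Ab1 -0.996 and H2-DMa 0.22) and cre + LPS against f/f + LPS (Ciita 0.81, H2-Ab1 -0.39 and H2-DMa 0.21). The same, fitted with DESeq2, turned signs for f/f + LPS against f/f (H2-Ab1 1.01), cre + LPS against cre (Ciita -0.77 and H2-Ab1 1.57), cre against f/f (H2-Ab1 -0.99 and H2-DMa 0.23) and cre + LPS against f/f + LPS (Ciita 0.76, H2-Aa -0.0043, H2-Ab1 -0.43 and H2-DMa 0.16). The other alternatives keep the headings as deposited. With the replicate block, signs turned for f/f + LPS against f/f (Ciita 1.60, Cd74 0.058 and H2-DMb1 0.025), cre against f/f (Cd74 0.046 and H2-Eb1 0.21), cre + LPS against f/f + LPS (H2-DMa 0.0067) and cre + LPS against f/f (Ciita 0.50, Cd74 0.48 and H2-Aa 0.11). With DESeq2, signs turned for cre + LPS against cre (H2-Aa -0.0043), cre against f/f (H2-DMa 0.068) and cre + LPS against f/f + LPS (H2-DMa 0.0049). With RLE factors, signs turned for cre + LPS against cre (H2-Aa -0.0039), cre against f/f (H2-DMa 0.068) and cre + LPS against f/f + LPS (H2-DMa 0.0070). With no filter beyond 1 count, signs turned for the interaction (H2-DMa 0.022). With the sum over transcript rows, signs turned for the interaction (H2-DMa 0.089). With the curated transcript of each gene, chosen after the data were seen, signs turned for the interaction (H2-DMa 0.13). Leaving out a library turned the sign of some members, and in the pairwise comparisons with the group headed f/f, leaving out its replicate 3 gave the upper end for Ciita, Cd74 and H2-Aa. The ranges of the log2 fold changes follow. In f/f + LPS against f/f, Ciita ran from -1.195 to 2.69, Cd74 -1.08 to 0.63, H2-Aa -1.11 to 0.32, H2-DMa -0.085 to 0.48 and H2-DMb1 -0.35 to 0.19. In cre + LPS against cre, Cd74 ran from -0.22 to 0.55, H2-Aa -0.36 to 0.34, H2-Eb1 -0.074 to 0.35 and H2-DMa -0.10 to 0.56. In cre against f/f, Ciita ran from -3.48 to 1.08, Cd74 -0.93 to 0.78, H2-Aa -0.83 to 0.60, H2-Eb1 -0.50 to 0.61, H2-DMa -0.37 to 0.29 and H2-DMb1 -0.69 to 0.023. In cre + LPS against f/f + LPS, H2-Aa ran from -0.0062 to 0.70 and H2-DMa -0.20 to 0.18. In the interaction, Ciita ran from -1.89 to 2.68, Cd74 -0.37 to 1.35, H2-Aa -0.26 to 1.17 and H2-DMa -0.29 to 0.36. In cre + LPS against f/f, Ciita ran from -2.01 to 1.89, Cd74 -0.69 to 1.03, H2-Aa -0.79 to 0.65, H2-Eb1 -0.38 to 0.74, H2-DMa -0.12 to 0.45 and H2-DMb1 -0.16 to 0.40. The replicate numbers share no stated origin, so a call gained under the block is given as a value only. The intervals of Ciita, Cd74 and H2-Aa reached beyond 2-fold in each of the 6 comparisons, so changes of that size are not excluded for these genes.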

Other observations

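The 13 genes that were more than 2-fold lower in replicate 3 of both groups headed LPS, of 11310 compared, were Aif1, C1qa, C1qb, C1qc, Cd74, Cttn, Erdr1, F830016B08Rik, G530011O06Rik, Gm6634, Mid1, Plxdc2 and Tlr9. C1qa, a complement gene of resident macrophages, had 7880, 6696 and 2166 counts in the libraries headed f/f + LPS and 7404, 6087 and 1930 in those headed cre + LPS. It had 295, 43918 and 7925 counts in those headed f/f, and 219, 28513 and 26525 in those headed cre. Replicate 1 was thus the lowest of both groups headed unstimulated for C1qa, as it was for Cd74 and H2-Aa. The 6 genes more than 2-fold higher in replicate 3 of both groups headed LPS were Acpp, Cd81, Gsta3, Ptgfrn, Serpinb6b and Slc15a2. With the headings exchanged, both groups headed LPS are tlr4f/f-lysM-cre and both groups headed unstimulated are tlr4f/f. These genes were chosen after the values of the members were seen, and no test was made.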
